A study of Mus musculus with 3 samples.

Results

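The enzymes that write, copy and remove 5-methylcytosine were followed as a set of 10 mouse genes: Dnmt1, Dnmt3a, Dnmt3b, Dnmt3l, Tet1, Tet2, Tet3, Uhrf1, Uhrf2 and Tdg. Members were all non-control spots of the arrays whose gene name equalled one of these symbols; the rule reads symbols only, and the set was proposed with earlier results of these data known. The rule returned all 10 genes, of 30458 gene names on the array, through 22 probes. Of these, 16 probes of 9 genes were bright enough to test, and Tet3 was not. Tested genes numbered 15428 in all.

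Dnmt3a and Dnmt3b place methyl groups on unmethylated CpG dinucleotides, and Dnmt3l is a catalytically inactive partner that stimulates both. Dnmt1 copies existing methylation to the new strand after replication, guided by Uhrf1, which binds hemimethylated DNA; Uhrf2 is a close relative of Uhrf1. Tet1, Tet2 and Tet3 oxidise 5-methylcytosine, and Tdg, a DNA glycosylase, excises the more oxidised products so that base excision repair can restore cytosine. In early mouse development the de novo enzymes, Dnmt3l and Tet1 are known to be abundant in pluripotent cells, and Dnmt3l declines as these cells differentiate.

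The samples were mouse embryoid bodies, aggregates in which embryonic stem cells differentiate, grown in suspension without LIF (leukaemia inhibitory factor, which maintains embryonic stem cells) and taken at day 10. One group carried Dido3deltaCT, a mutant with a C-terminally truncated Dido3 protein, and the other was a wildtype control, with 3 biological replicates each. Each of 3 two-colour arrays set 1 mutant against 1 wild type sample, with the mutant in Cy3 on replicates 1 and 3 and in Cy5 on replicate 2. The parental cell line, the number of independent clones and whether the replicates were separate cultures of 1 line are not given in the sources used here, so p-values measure the spread between these samples only.

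All values below are log2 ratios of mutant over wild type per array (a difference), or, where named as levels, log2 normalized intensities of 1 sample. A gene was taken from its brightest probe, limma tested its mean ratio against 0, and adjusted p-values are Benjamini-Hochberg values over all tested genes. Between 46.5% and 62.5% of spots lay well above background in the mutant channels and between 48.5% and 74.4% in the wild type channels. Ratios over genes correlated at 0.879 between replicates 1 and 3, which share a dye orientation, and at 0.15 and 0.18 between each of these and replicate 2 (genes are not independent replicates). The targeted gene, Dido1, had 4 probes, with mean ratios of 1.74, 1.12, 1.36 and −1.92. The probe at 1.12 was above background in 2 of 3 wild type samples. The probe at 1.36 was so in 0 of 3, so its difference is better read as at least 2.17-fold higher. The limits of the deletion are not in the labels, so which probe lies inside it is not known and the probes do not check the genotype. Both tested Y-linked genes passed the test and were lower in the mutant: Eif2s3y at −6.17 ± 0.36 (SE, n = 3; limma, adjusted p = 0.037), with 1 of 3 mutant samples well above background, so that this size depends on the background level, and Ddx3y at least 21.2-fold lower, since none of its mutant signals stood clear of background. Both were lower on all 3 arrays, so this difference goes with genotype throughout. Its part in the values of the methylation genes cannot be told apart from that of the mutation and was not tested. RNA came from whole embryoid bodies, so fewer cells of a type and less RNA per cell cannot be told apart.

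The array reads each gene through 60-base probes whose mm9 positions are given in the files. The 4 probe sequences shown were chosen for display. No annotation was used to place the probes, so no statement is made on whether the others lie in coding sequence. Read by its letters, the first Dnmt3b probe (chr2:153512098-153512157, plus strand) starts in the last codons of the coding sequence. Its first 38 bases end at the stop codon, in capitals. The Dnmt1 probe (chr9:20711973-20712341, minus strand) spans 369 bases of genome and so crosses an intron. The Tet1 probe is the 1 of 3 nearest the gene's start (chr10:62301856-62301915, minus strand), and the Uhrf2 probe the 1 of 2 nearest its gene's start (chr19:30130768-30130827, plus strand).
Dnmt3b A_55_P1975903, first 38 bases: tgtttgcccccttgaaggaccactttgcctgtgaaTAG
Dnmt1 A_51_P195573: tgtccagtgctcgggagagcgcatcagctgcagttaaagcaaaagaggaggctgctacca
Tet1 A_55_P2123002: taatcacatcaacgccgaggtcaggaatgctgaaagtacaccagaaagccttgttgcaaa
Uhrf2 A_52_P220485: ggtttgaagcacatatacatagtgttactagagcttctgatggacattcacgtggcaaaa

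Dnmt3b and Dnmt3l gave the highest mean ratios of the set, and their start regions differ in CpG content, the substrate of the enzymes themselves. The 250 bases before the RefSeq start (GRCm38.p6, both plus strand) are shown with each CpG in capitals, for Dnmt3b at chr2:153649199-153649448 and for the first Dnmt3l start at chr10:78042037-78042286.
Dnmt3b: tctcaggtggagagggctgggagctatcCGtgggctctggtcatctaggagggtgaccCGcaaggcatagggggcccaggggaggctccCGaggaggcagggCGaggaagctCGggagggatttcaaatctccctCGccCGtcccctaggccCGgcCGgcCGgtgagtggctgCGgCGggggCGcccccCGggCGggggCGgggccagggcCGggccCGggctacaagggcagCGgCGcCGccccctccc
Dnmt3l: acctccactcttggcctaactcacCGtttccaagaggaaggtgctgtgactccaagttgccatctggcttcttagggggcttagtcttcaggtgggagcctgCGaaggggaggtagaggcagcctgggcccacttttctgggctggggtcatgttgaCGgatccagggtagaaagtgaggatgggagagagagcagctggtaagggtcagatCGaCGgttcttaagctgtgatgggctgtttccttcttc
In RefSeq windows of 300 bases around a start (250 before and 50 after), the Dnmt3b start held 30 CpGs and the 3 Dnmt3l starts 6, 4 and 3, against a median of 7 over 32851 windows. The single Tet1, Tet2 and Tet3 windows held 17, 57 and 22 CpGs, those of Uhrf2 and Tdg 28 and 26, and the 3 of Dnmt3a 46, 47 and 18. All 10 members matched, with 17 windows in all. The letters GGGCGG, searched on both strands, were in 13 of the 17 (35.7% of all windows), TTCCCGCC in 1 of the 17, a Uhrf1 window (2.19% of all), and ATGCAAAT in 0 of the 17 (1.74% of all). These matches describe letters only.

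Between genotypes, the de novo methyltransferase Dnmt3b, its cofactor Dnmt3l and the oxidases Tet1 and Tet2 had the highest ratios of the set, with means at least 2-fold higher in the mutant and above 0 on all 3 arrays. Uhrf1 was also above 0 on all 3 arrays, at a smaller ratio. Uhrf2 was the only one of the 9 tested members below 0 on all 3, and Dnmt1, Dnmt3a and Tdg had mixed signs. None of the 9 passed limma's test at an adjusted p of 0.05, where 0.207% of the 15428 genes were called higher and 0.0907% lower. At an unadjusted p under 0.05, 4 members were higher (Dnmt3b, Dnmt3l, Tet1 and Tet2, against 11.4% of all genes) and 1 was lower (Uhrf2, against 11.3%). At an adjusted p under 0.1, a threshold added after the data were seen, Dnmt3b and Dnmt3l were higher (2 of 9, against 4.22% of all genes) and 0 of 9 were lower (3.8% of all genes, 8.02% in either direction). Of the 9, 5 were above 0 on all 3 arrays (21.7% of all genes), 1 was below 0 on all 3 (22.7%), and 4 were above 0 on all 3 and at least 2-fold higher (7%), with 0 at least 2-fold lower (6.7%). The 2-fold size rests on the brightest probe for Tet1 and Tet2, whose means over probes were 0.97 and 0.64, and Tet2 was also under 1 with median centring (0.72), with all backgrounds as deposited (0.90) and in the authors' deposited ratios (0.73), and on leaving out replicate 1 (0.97) or replicate 2 (0.99). Levels of the 3 mutant samples all lay above those of the 3 wild type samples for 5 members (Dnmt3b, Dnmt3l, Tet1, Tet2 and Uhrf1; 11% of all genes) and all below them for Uhrf2 (10.3%). The direction of each mean held under 15 alternatives of processing or sample choice for 7 of the 9, and turned in 1 of 15 for Dnmt3a and in 4 of 15 for Tdg. Among the 15, the changes of filter and the unpaired fit left each member's mean as it was, so they could not turn it. The mean over probes likewise could not turn a gene with 1 tested probe. Dnmt1 is among the 7, with mixed signs between arrays and −0.09 in the fit with a dye term.

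**Figure D1:**
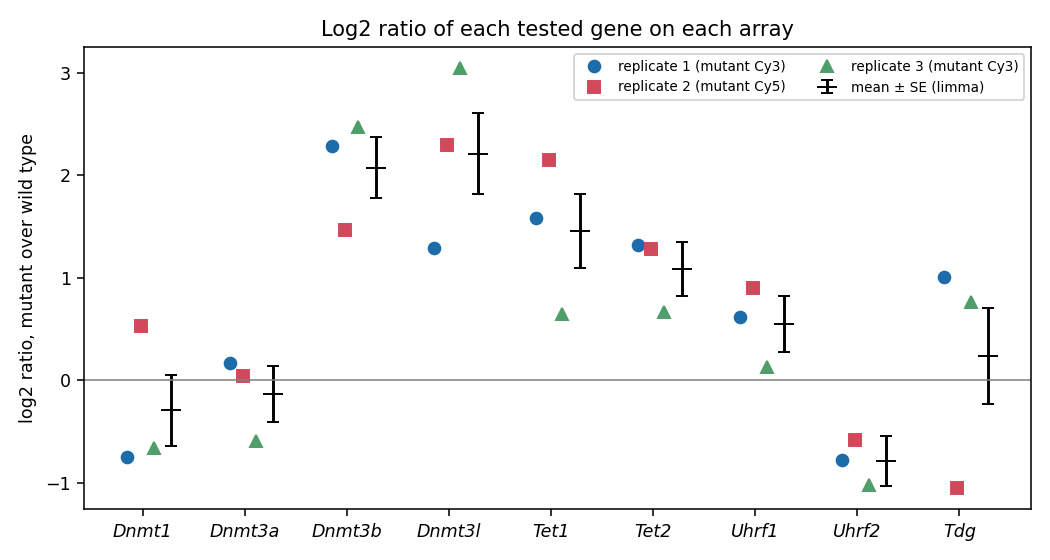
Log2 ratio of mutant over wild type (y axis) for the 9 tested genes, taken from each gene's brightest probe; circles, squares and triangles are replicates 1, 2 and 3, and the bars give limma's mean ± SE. Dnmt3b, Dnmt3l, Tet1, Tet2 and Uhrf1 lie above 0 on every array and Uhrf2 below, while Dnmt1, Dnmt3a and Tdg straddle 0.

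Dnmt3b was measured by 3 probes near the end of its transcript. The brightest (chr2:153513403-153513462) gave ratios of 2.29, 1.47 and 2.47 on replicates 1, 2 and 3. Its levels were 16.19, 14.91 and 15.84 in the mutant samples and 13.90, 13.44 and 13.38 in the wild type samples. The lowest mutant sample, replicate 2, thus lay above the highest wild type sample, and the groups did not overlap. The mean ratio was 2.07 ± 0.30 (SE, n = 3), a 4.21-fold higher level, with a 95% interval of 1.30 to 2.85 and an adjusted p of 0.0559 (limma), and 1.16% of genes had a higher mean.

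The other two Dnmt3b probes gave like ratios. The probe at the stop codon, printed above, gave 1.34, 2.49 and 1.76, with a mean of 1.86 ± 0.58 (SD, n = 3), and the probe 893 bases downstream 1.44, 2.11 and 1.89, with a mean of 1.81 ± 0.34. On replicate 2 both exceeded the brightest probe, and on replicates 1 and 3 both lay below it. The stop codon probe differed from the middle one by 0.05 ± 0.29 (SD, n = 3) and from the brightest by −0.21 ± 1.07, both within the spread between arrays. Limma's fit over 19142 probes gave an adjusted p of 0.065, 0.057 and 0.057 for the stop codon, middle and brightest probe, where 0.616% of probes were called at 0.05.

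Dnmt3l, the cofactor without catalytic activity, was read by 1 probe (chr10:77526112-77526171). Its ratios were 1.29, 2.29 and 3.04, the widest range of any member always above 0. Levels were 13.83, 13.92 and 14.33 in the mutant and 12.54, 11.62 and 11.29 in the wild type samples. The mutant samples lay close together, and the larger ratio on replicate 3 came with the lowest wild type level. The mean was 2.21 ± 0.40 (SE, n = 3), or 4.62-fold, with an interval of 1.20 to 3.22 and an adjusted p of 0.0677 (limma), and 0.933% of genes had a higher mean.

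Dnmt3a, the second catalytic de novo enzyme, showed no such difference on its only probe (chr12:3914320-3914379), which was annotated to transcript variant 1. Ratios were 0.16, 0.04 and −0.60. Levels of 10.55, 10.15 and 10.93 in the mutant overlapped those of 10.39, 10.11 and 11.52 in the wild type. The mean was −0.13 ± 0.27 (SE, n = 3), and its 95% interval of −0.83 to 0.57 lies below the intervals of Dnmt3b and Dnmt3l (limma, adjusted p = 0.804).

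Ratios of the de novo genes were also set against each other within each array. Dnmt3b exceeded Dnmt3a by 2.13, 1.43 and 3.06, on average 2.21 ± 0.82 (SD, n = 3). Dnmt3l exceeded Dnmt3a by 2.34 ± 1.26, again on all 3 arrays. Dnmt3l and Dnmt3b differed by −1.002, 0.83 and 0.58, on average 0.13 ± 0.99, so which of the pair had the higher ratio changed with the array. With 3 arrays an exact sign-flip test of such a difference cannot go below p = 0.25, so none was run.

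**Figure D2:**
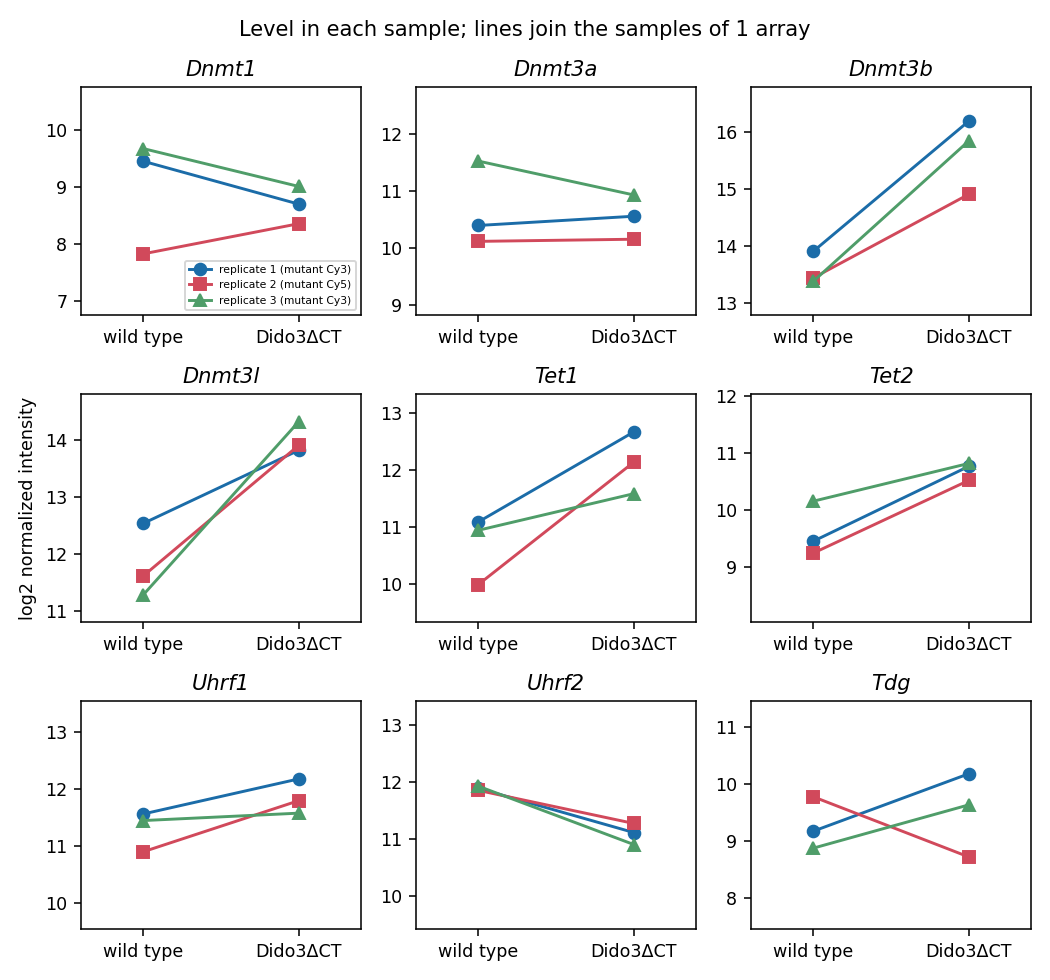
Log2 normalized intensity of each sample (y axis, each panel spanning 4 log2 units) for wild type and mutant, with a line joining both samples of 1 array. The groups do not overlap for Dnmt3b, Dnmt3l, Tet1, Tet2, Uhrf1 and Uhrf2; levels of different genes come from different probes and are not comparable.

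The maintenance genes shared no direction. Dnmt1, the maintenance methyltransferase, had ratios of −0.75, 0.53 and −0.67 on its probe printed above. Levels were 8.70, 8.35 and 9.01 in the mutant and 9.45, 7.82 and 9.67 in the wild type, which overlapped, the wild type sample of replicate 2 being the lowest of all. The mean was −0.30 ± 0.35 (SE, n = 3; interval −1.19 to 0.60; limma, adjusted p = 0.649).

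Uhrf1, which brings Dnmt1 to hemimethylated DNA, had ratios of 0.62, 0.90 and 0.13 on the probe used (chr17:56462770-56462829). Its mutant levels of 12.18, 11.80 and 11.58 lay just above the wild type levels of 11.56, 10.90 and 11.45, with 0.015 log2 units between the nearest samples. The mean was 0.55 ± 0.27 (SE, n = 3; interval −0.15 to 1.24; limma, adjusted p = 0.305). A second Uhrf1 probe, annotated to transcript variant 3, was well above background on 0 of 3 mutant and 2 of 3 wild type channels and was not tested.

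Uhrf2, the relative of Uhrf1, was the lowest member. Its brightest probe (chr19:30167958-30168017) gave ratios of −0.78, −0.58 and −1.02. The wild type levels were nearly equal, at 11.89, 11.86 and 11.93, and the mutant levels of 11.11, 11.27 and 10.90 all lay below them. The mean was −0.79 ± 0.24 (SE, n = 3), a 1.73-fold lower level, with an interval of −1.42 to −0.17 (limma, adjusted p = 0.152), and 11% of genes had a lower mean. The second Uhrf2 probe, printed above and 37190 bases upstream, gave −0.09, −0.41 and 0.06, with overlapping groups and a mean of −0.15 ± 0.24 (SD, n = 3; limma, adjusted p = 0.765).

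On the brightest probes, the ratio of Uhrf1 exceeded that of Uhrf2 by 1.39, 1.48 and 1.16 on the 3 arrays, on average 1.34 ± 0.17 (SD, n = 3). Against Dnmt1, Uhrf1 was higher by 1.37, 0.37 and 0.80, on average 0.84 ± 0.50. This comparison uses the brightest probe of each gene; the second Uhrf2 probe exceeded the brightest by 0.69, 0.17 and 1.09, on average 0.65 ± 0.46 (SD, n = 3), so with it the gap to Uhrf1 is smaller and less even between arrays.

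Of the oxidases, Tet1 and Tet2 were higher in the mutant samples on every array, and Tet3 was too dim to compare. Tet1 ratios were 1.58, 2.15 and 0.64 on the brightest probe (chr10:62274448-62274507). Levels of 12.67, 12.14 and 11.58 in the mutant did not overlap those of 11.08, 9.99 and 10.94 in the wild type. The mean was 1.46 ± 0.36 (SE, n = 3), or 2.75-fold, with an interval of 0.53 to 2.38 and an adjusted p of 0.108 (limma). Replicate 3 had the smallest ratio, with the lowest mutant level.

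Tet2 ratios were 1.32, 1.28 and 0.66 on its brightest probe (chr3:133126751-133126810). Mutant levels of 10.76, 10.51 and 10.81 lay above wild type levels of 9.44, 9.23 and 10.15. The mean was 1.09 ± 0.27 (SE, n = 3), or 2.12-fold, with an interval of 0.40 to 1.77 (limma, adjusted p = 0.107). As for Tet1, replicate 3 had the smallest ratio, here with the highest wild type level. The ratios of Tet1 and Tet2 differed by 0.27, 0.87 and −0.02 within arrays, on average 0.37 ± 0.46 (SD, n = 3).

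Other probes of Tet1 and Tet2 gave smaller ratios than the brightest. The Tet1 probe printed above was dim, with wild type levels of 7.91, 7.05 and 7.23, and was above background in 2 of 3 wild type samples. It gave ratios of 1.00, 0.93 and 0.18 (mean 0.71 ± 0.46, SD, n = 3), and the third Tet1 probe 0.29, 1.58 and 0.35 (mean 0.74 ± 0.73). All 3 Tet1 probes were above 0 on every array, but the probe printed above entered the test through the mutant samples alone. The brightest exceeded that probe by 0.75 ± 0.41 and the third by 0.72 ± 0.52. A Tet2 probe only 154 bases from the brightest gave 0.04, −0.03 and 0.59, a mean of 0.20 ± 0.34 (SD, n = 3, limma, adjusted p = 0.696). This probe was dim, with levels of 6.69, 7.39 and 7.90 in the mutant and 6.65, 7.42 and 7.31 in the wild type samples. The brightest exceeded it by 1.28, 1.31 and 0.07, so replicates 1 and 2 separated these neighbouring probes and replicate 3 did not. Whether the gap follows the brightness of the probes was not tested. The third Tet2 probe, on another transcript record, passed background on 2 of 3 channels of each genotype and was not tested.

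The 3 Tet3 probes (chr6, minus strand) gave ratios between −0.22 and 0.32. In a pair of them no sample of either genotype stood clear of background, and the third was so only in 2 wild type samples. No fold is given, since any level of Tet3 lay at or under what the arrays resolve.

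**Figure D3:**
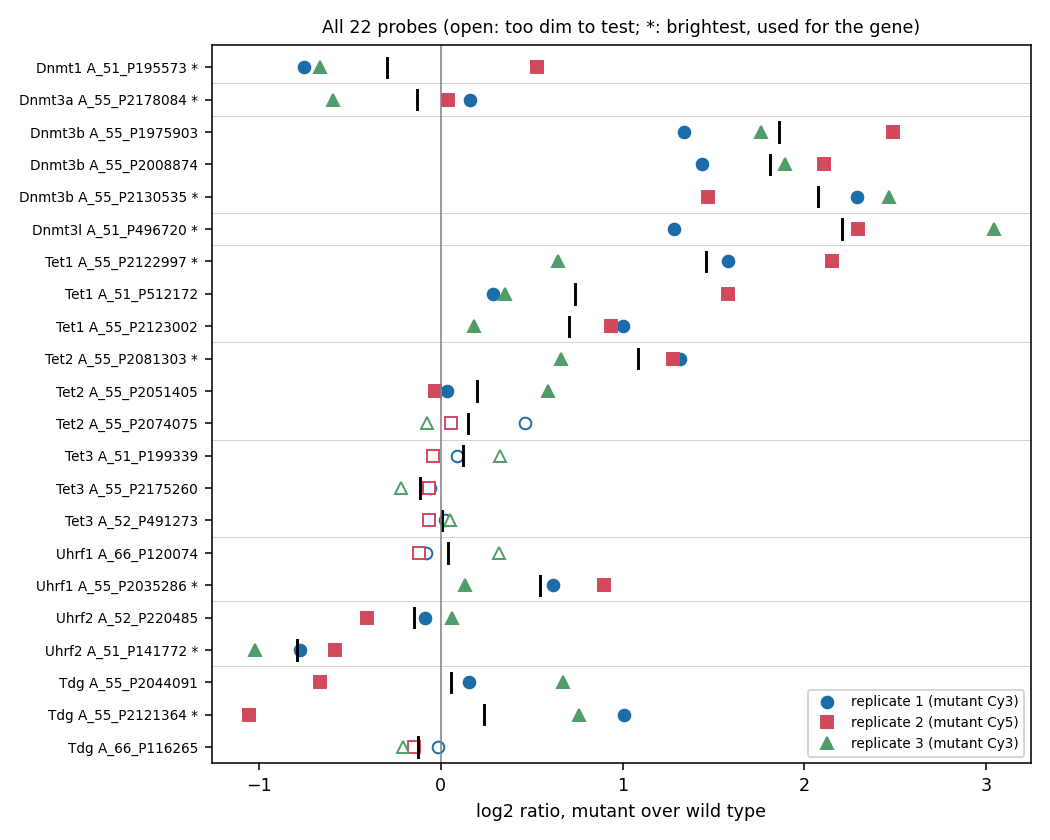
Log2 ratio of mutant over wild type (x axis) for all 22 probes; symbols are replicates as in the key, open where the probe was too dim to test, the bar is the mean and an asterisk marks the brightest probe. The 3 Dnmt3b and 3 Tet1 probes lie above 0 on every array, while the second probes of Tet2 and Uhrf2 lie close to 0. Tet1 A_55_P2123002 was above background in 2 of 3 wild type samples and entered the test through the mutant samples alone.

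Tdg, the glycosylase that follows the Tet enzymes, took its sign from the array. Ratios were 1.01, −1.06 and 0.76 on the brightest of 3 probes (chr10:82112994-82113053). Levels were 10.17, 8.71 and 9.63 in the mutant and 9.16, 9.77 and 8.87 in the wild type, and they overlapped. The mean was 0.24 ± 0.47 (SE, n = 3; interval −0.97 to 1.44; limma, adjusted p = 0.795). The second tested Tdg probe had the same pattern of signs, at 0.16, −0.66 and 0.67.

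Read as Cy5 over Cy3 without regard to genotype, Tdg gave −1.01, −1.06 and −0.76 and Dnmt1 0.75, 0.53 and 0.67. These 2 of the 9 members had the same dye sign on all 3 arrays, as did 39.9% of all genes. A fit with a dye term gave Tdg a dye coefficient of −0.97 and a genotype ratio of −0.09, and Dnmt1 a dye coefficient of 0.62 and a genotype ratio of −0.09. In the same fit the dye coefficients were 0.52 for Tet1, −0.45 for Dnmt3b, 0.26 for Uhrf1, 0.16 for Uhrf2, 0.14 for Tet2, 0.13 for Dnmt3a and 0.07 for Dnmt3l. The genotype ratios beside them were 1.63, 1.92, 0.64, −0.74, 1.13, −0.09 and 2.23. Without replicate 2, the sole array with the mutant in Cy5, Dnmt1 and Tdg pass the test at −0.71 (limma, adjusted p = 0.0253) and 0.88 (adjusted p = 0.0148), but genotype and dye then cannot be told apart.

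**Figure D4:**
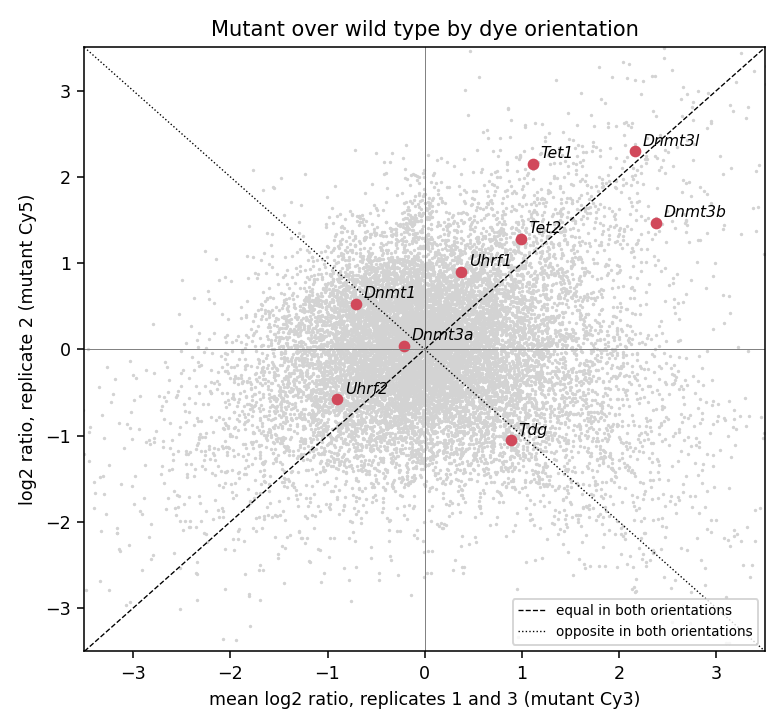
Each point is a gene, by its mean log2 ratio on replicates 1 and 3 (mutant in Cy3, x axis) and on replicate 2 (mutant in Cy5, y axis); grey, all tested genes except 125 beyond 3.5 on either axis, red, the 9 members. Dnmt3b, Dnmt3l, Tet1, Tet2, Uhrf1 and Uhrf2 have the same sign in both orientations, with Dnmt3l and Tet2 close to the dashed line of equal ratios and Tet1 and Dnmt3b farther from it, and Dnmt1 and Tdg lie near the dotted line of opposite ratios.

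The counts of calls rest on single arrays. Without replicate 2 the fit calls 5 members higher and 2 lower, against 3962 higher and 3343 lower of all 15428 genes. A dye term in the fit, whose error also comes from replicates 1 and 3 alone, calls 5 members higher (Dnmt3b, Dnmt3l, Tet1, Tet2 and Uhrf1) and 1 lower (Uhrf2). Over all 15428 genes it calls 2448 higher and 2299 lower. With the 6 channels as unpaired samples, Dnmt3b and Dnmt3l are called (limma, adjusted p = 0.0487 and 0.041), among 178 genes higher and 96 lower of 15428.

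To place the set in its pathway, listed genes were read from the same fit. Of 20 partners and targeting factors of the methyltransferases, all tested, 0 passed at 0.05. At an adjusted p under 0.1, 2 were higher (4.22% of all genes), and 4 at an unadjusted p under 0.05 (11.4% of all genes). The list's median was 0.52, against 0.03 over all genes tested, and 16 of 20 means were above 0, against 8087 of 15428 over all genes. The median was 0.19 with median centring, where the median of all genes is −0.22, 0.32 as means over probes and 0.30 without replicate 2. The largest ratios belonged to Dppa3, which displaces Uhrf1 from chromatin, at 4.26, 0.80 and 5.21 (mean 3.43 ± 0.87, SE; limma, adjusted p = 0.113). Next were Prdm14, a repressor of Dnmt3 genes in embryonic stem cells, at 2.42, 1.72 and 1.98 (2.04 ± 0.26; adjusted p = 0.054) and Zfp57, which keeps imprints methylated, at 1.78, 1.63 and 1.79 (1.73 ± 0.23; adjusted p = 0.054). Dppa3 was uneven between arrays, lowest on replicate 2, and Zfp57 was nearly even.

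The list of 5-methylcytosine readers and related proteins did not share a positive median. Of its 10 genes, all tested, 0 passed at 0.05 and 0 at 0.1. At an unadjusted p under 0.05, 3 of 10 were lower, against 11.3% of all genes. The median was −0.34, and 6 of 10 means were below 0, against 7341 of 15428 over all genes. Zbtb4 had −1.11, −0.95 and −0.51, and Mbd2 −0.87, −0.59 and −0.92.

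Of 19 genes of base excision repair and cytosine deamination, 17 were tested and 0 passed at 0.05. At an adjusted p under 0.1, 2 were higher and 1 lower, against 4.22% and 3.8% of all genes. At an unadjusted p under 0.05, 3 were higher and 2 lower, against 11.4% and 11.3% of all genes. The cytidine deaminases Apobec3 (1.98 ± 0.25, SE, n = 3; limma, adjusted p = 0.054) and Apobec1 (1.69 ± 0.24; adjusted p = 0.056) had positive ratios on each array, and the glycosylase Neil1 was at −1.54 ± 0.33 (adjusted p = 0.087), above background in 1 of 3 mutant samples. The list's median was −0.21, and it ranged from −0.53 to 0.11 over the 15 alternatives.

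Of 20 genes that supply methyl groups or α-ketoglutarate, or that partner with Tet proteins, 19 were tested (Idh2 was too dim) and 0 passed at 0.05. At an adjusted p under 0.1, 2 were higher, against 4.22% of all genes. At an unadjusted p under 0.05, 6 were higher and 1 lower, against 11.4% and 11.3% of all genes. The median was 0.29, 0.029 with median centring and 0.46 without replicate 1 or without replicate 2. Tdh, which feeds threonine into one-carbon metabolism in mouse embryonic stem cells, had 1.36, 2.00 and 1.51 (1.62 ± 0.26, SE; limma, adjusted p = 0.06), and Idh3a, a mitochondrial isocitrate dehydrogenase subunit, 1.19, 0.85 and 1.58 (1.21 ± 0.27; adjusted p = 0.089). Wt1, a transcription factor that recruits Tet2, was uneven at 2.94, −0.05 and 1.98.

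Germline genes whose promoters are normally silenced by DNA methylation had the highest median of the 5 pathway lists. Of 20 listed, 17 were tested and 0 passed at 0.05. At an adjusted p under 0.1, 8 were higher and 0 lower, against 4.22% and 3.8% of all genes. At an unadjusted p under 0.05 the counts were 12 and 0, against 11.4% and 11.3% of all genes. The median was 1.66, and 16 of 17 means were above 0, against 8087 of 15428 over all genes. These counts include genes that entered the test through the mutant samples alone, where they were high. Over the 14 genes above background in both genotypes, the median was 1.68. Array medians were 1.96, 0.88 and 2.26, lowest on replicate 2. Mael, of the piRNA pathway, had 3.75, 0.95 and 4.53 (3.07 ± 0.72, SE; limma, adjusted p = 0.1), Hormad1, of the meiotic chromosome axis, 4.13, 1.43 and 2.99 (2.85 ± 0.54; adjusted p = 0.072), and Dazl, a germ cell RNA-binding protein, 3.49, 0.42 and 2.79 (2.23 ± 0.63; adjusted p = 0.132). DNA methylation itself was not measured.

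The level of cell type markers differed between the same samples. Of 12 pluripotency markers, 2 passed and were higher (0.207% of all genes). These were Zfp42 (3.17 ± 0.26, SE, n = 3, limma, adjusted p = 0.042) and Dppa5a (2.67 ± 0.24, adjusted p = 0.042). The list's median was 2.25, and its summed level ran from 189407 to 406765 intensity units in the mutant and from 39816.8 to 70401.8 in the wild type. Nanog, at 0.26, −0.30 and 0.27, had the smallest mean of the 12. The Nanog probe was dim, with levels of 6.75, 7.03 and 7.59 in the mutant and 6.49, 7.33 and 7.32 in the wild type samples. It was still above background in 3 of 3 samples of each genotype. Tdgf1 also had mixed signs, at 1.96, −0.21 and 1.99, and 10 of the 12 markers were above 0 on all 3 arrays. Of 12 parietal endoderm markers 0 passed and 11 were lower at 0.1 (3.8% of all genes). Their median was −2.86, with summed levels of 21997.4 to 190366 against 335092 to 670093. Of 12 visceral endoderm markers 1 passed and was lower (0.0907% of all genes), Rbp4 at −2.69 ± 0.25 (limma, adjusted p = 0.043). The list's median was −1.63, with summed levels of 20982 to 131011 against 70803.4 to 382673, which overlapped.

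Of the remaining markers, those of neural cells (8 of 12 tested), blood and endothelium (10 of 12) and mesoderm and heart (11 of 12) had medians of −2.62, −0.65 and −0.40. In the same order, 0, 1 and 1 were called lower (0.0907% of all genes), and 0 were called higher (0.207%). The neural median was −0.90 over the 5 genes above background in both genotypes and −1.46 with the authors' deposited ratios. Summed levels in mutant against wild type were 19272.9 to 33985.3 against 13157.8 to 90519.4 for neural cells, where the bright probe of Otx2 (mean ratio 0.41) made up most of the mutant sums, 2807.57 to 5350.91 against 9086.69 to 11205.1 for blood and endothelium, and 4665.01 to 6783.33 against 8613.4 to 24974.1 for mesoderm and heart. Proliferation genes, relevant to Dnmt1 and Uhrf1, which peak in S phase, had a median of 0.22 (14 of 15 tested, 0 called), turning to −0.08 under median centring, with overlapping sums of 160143 to 226085 and 142752 to 209681. Apart from 1 blood and endothelium gene, no tested marker was below background in all mutant samples, and the part of cell type content in the ratios of the methylation genes was not tested.

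**Figure D5:**
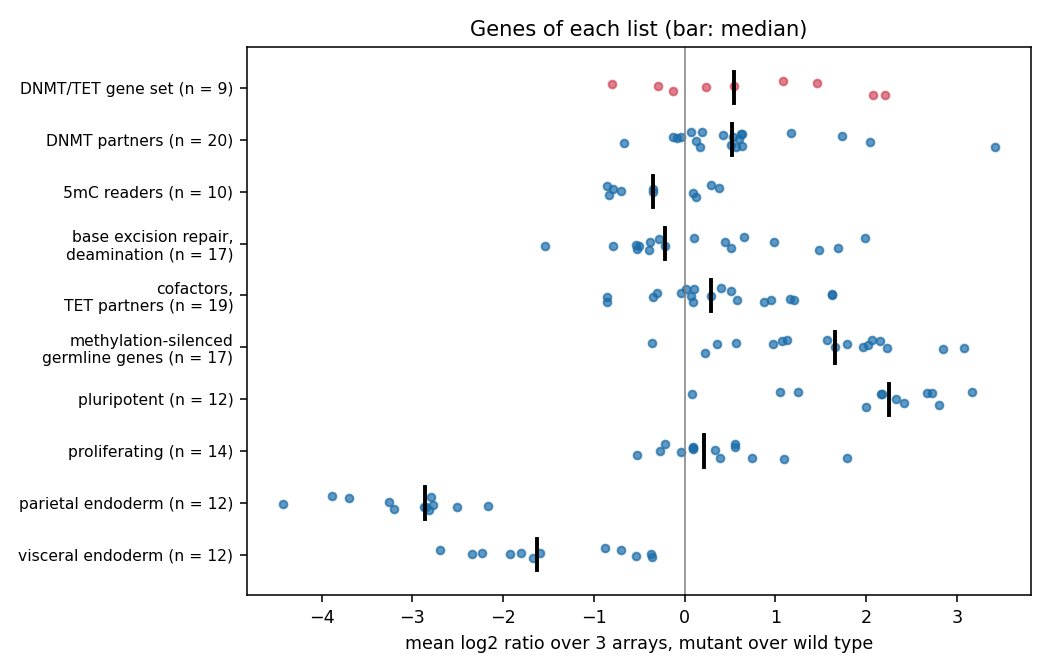
Mean log2 ratio over 3 arrays (x axis), 1 point per tested gene, with a bar at each list's median. Shown are the pathway lists and the pluripotency, proliferation, parietal endoderm and visceral endoderm markers. Neural, blood and endothelium, and mesoderm and heart markers are not drawn. Red marks the 9 tested members, whose median was 0.55. The germline and pluripotency lists lie mostly right of 0 and both endoderm lists left of it, and the members spread between −0.79 and 2.21.

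Genes whose ratios resembled those of the highest and lowest member were ranked by the Euclidean distance between log2 ratios over the 3 arrays. Nearest to Dnmt3l were Gm9 (distance 0.164; ratios 1.26, 2.23 and 2.89), Got1l1 (0.396), Fthl17f (0.411), the germline gene Tex19.1 (0.42) and Prl4a1 (0.445). These 5 were the only genes of 15428 within 0.5 of it, and their means ran from 2.13 to 2.33. Around Uhrf2, 488 genes lay within 0.5; the nearest were Csgalnact1 (0.0431; ratios −0.79, −0.60 and −1.06), the long non-coding RNA Tug1 (0.0573), 2510006D16Rik (0.0658), Rab31 (0.0976) and Syap1 (0.122). Such counts follow how many genes have ratios of that size: 0.933% of genes had a higher mean than Dnmt3l and 11% a lower mean than Uhrf2.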

How the data were processed

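RNA was measured on 3 two-colour Agilent mouse 4x44K v2 arrays on 1 slide. The members and gene lists were chosen with earlier results of these data known. Per the file headers, the deposited files (Agilent Feature Extraction 10.7.3.1, mm9) hold mean and local background intensity per spot and dye, not normalized, intensity values that the scanner software had processed, and other columns that flag spots. The authors' deposited value table holds log2 ratios (limma, per the submitters' processing notes); its columns for replicates 1 and 3 correlated more closely with each other's scanner file (0.775 and 0.815) than with their own (0.62 and 0.715), so it served only as an alternative. Its medians were −0.04, 0.01 and −0.01; its centring is unknown.

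With R 4.3.3 and limma 3.58.1, intensities were corrected by normexp (offset 50) and loess, with 1377 control spots at weight 0. On replicate 3, 7 spots whose background exceeded 10 times the median took the median background and were left out, as were 317, 364 and 438 outlier spots. A probe was tested if all 3 samples of either genotype stood well above background there (19142), and each gene took its brightest. Of 39429 probes, 26761 (67.9%) matched RefSeq (GRCm38.p6), used for names and promoters. Ratios were tested against 0 (lmFit, eBayes, two-sided, Benjamini-Hochberg, threshold 0.05), with 2 residual and 3.04 prior degrees of freedom; the number of arrays limits precision. Levels come from both channels after Aquantile scaling. A bound sets the brighter genotype against the background limit and is open to dye bias. Each array pairs 1 mutant and 1 wild type sample; channel deviations correlated at 0.515, 0.016 and 0.462. The fit was run on simulated ratios with independent noise, equal for all genes and smaller than the median spread of these arrays. That run checks the code only and does not give error rates for these data.

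Named were all members, from each pathway list the genes that passed and the 3 with the largest absolute ratio, and the 5 genes nearest the highest and lowest member. Some genes the rule names are not reported here. Individual marker genes and Y-linked genes were named after their values were seen. Alternatives changed background, normalization, filter, probe choice, dye, pairing, source and arrays. No mm9 annotation was used. Figures used matplotlib 3.10.9.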

Additional observations from a re-analysis of the deposited data

How the results depend on the processing

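Over all genes, limma called 32 higher and 14 lower at an adjusted p of 0.05 (1755 and 1747 at an unadjusted p under 0.05). In the same order the calls were 0 and 0 with all spot backgrounds as deposited and with the authors' deposited ratios, 97 and 64 without background correction, 282 and 185 with Agilent's processed signals, 86 and 57 with offset 16, 4 and 3 with median centring, 63 and 46 after scaling between arrays, 1 and 1 without a filter, 3 and 1 when both genotypes had to be above background, 67 and 36 as means over probes, 75 and 43 with every probe tested, 2448 and 2299 with a dye term, and 651 and 586 at an adjusted p under 0.1. With the channels as unpaired samples, that is with no replicate block, they were 178 and 96. Leaving out 1 replicate gave 3 to 3962 and 2 to 3343; without replicate 3, 8 of 9 higher and 7 of 9 lower genes were among the original calls.

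Of the members, 0 higher and 0 lower were called, and this held except with the dye term (5 and 1), without the pairing (2 higher), at an adjusted p under 0.1 (2 higher) and on leaving out 1 replicate (0 to 5 and 0 to 2). Tdg turned to −0.11 with median centring and −0.086 with the dye term, and ran from −0.15 to 0.88 on leaving out 1 replicate (−0.15 without replicate 1, −0.02 without replicate 3). Dnmt3a ran from −0.28 to 0.10 on leaving out 1 replicate, turning without replicate 3. Over all 15 alternatives, Dnmt3b ran from 1.83 to 2.38 (adjusted p from 0.00141 to 0.25), Dnmt3l from 1.79 to 2.67 (0.0122 to 0.284), Tet1 from 0.97 to 1.87 (0.00889 to 0.468), Tet2 from 0.64 to 1.30 (0.0138 to 0.617), Uhrf1 from 0.22 to 0.76 (0.0487 to 0.881) and Uhrf2 from −1.13 to −0.47 (0.014 to 0.868). The lowest Tet1 and Tet2 values came from the mean over probes. Median centring moved the median of all genes from 0.03 to −0.22, and the share of calls that were higher from 69.6% to 57.1%, against 57.8% after scaling. The cause of these shifts was not tested; the fit without replicate 2 takes its error from arrays of 1 dye orientation.

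Signal over background limits Tet3, the second Uhrf1 probe and 1 probe each of Tet2 and Tdg.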
